A study of Mus musculus with 12 samples.

Results

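Astrocyte identity and reactivity were followed in the cortex of E4FAD mice through 33 genes named by symbol, of 50563 genes in the count table. Identity genes, which mark astrocytes in the healthy brain, made up 25 of them, and reactive genes, which are known to rise when astrocytes respond to injury or disease, made up the other 8 (Gfap, Vim, Serpina3n, Cd44, Steap4, Timp1, Mt1 and Mt2). All 33 were found by their Ensembl identifiers in the GRCm38 annotation. The study asked how n-6 docosapentaenoic acid (DPAn-6), an omega-6 polyunsaturated fatty acid, acts on neuroinflammation in aged mice that model Alzheimer's disease. RNA-Seq of brain cortex was made for 12 mice, with 1 library per mouse.

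All 12 mice were E4FAD with the genotype APOE4+/+, 5FAD-/+, so both groups carried 2 copies of human APOE4 in place of mouse Apoe and 1 copy of the 5xFAD transgenes, which overproduce human amyloid beta. The 5 DPAn-6 mice, 3 females and 2 males, received the ethyl ester of DPAn-6 by oral gavage at 700 mg/kg each day for 3 weeks. The 7 CTRL mice, 4 females and 3 males, received the vehicle, which held 0.1% of each of the antioxidants alpha-tocopherol and palmitoyl ascorbic acid. According to the paper, the DPAn-6 mice were given these antioxidants too. By age, the CTRL group was 2 mice of 12 months and 5 of 14 months, and the DPAn-6 group was 2 of 12 months and 3 of 14 months. The sex of a single mouse is not in the labels. Mice without the 5FAD transgenes were not analysed here, so the values below compare mice that all carry the amyloid transgenes.

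Astrocytes clear glutamate from the synapse through the transporters Slc1a2 (GLT-1) and Slc1a3 (GLAST), convert it to glutamine with Glul, buffer water and ions at endfeet around blood vessels, and are joined to each other by connexin gap junctions. When the tissue is injured or holds amyloid plaques, they become reactive, with more of the intermediate filament proteins Gfap and Vim and, depending on the setting, of secreted inhibitors such as Serpina3n and Timp1 and of the metal-binding metallothioneins. A reactive astrocyte may keep or lose identity genes, so both sets were followed side by side.

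The CTRL libraries held 15339098 to 19500154 counts on genes (median 17449553), and the DPAn-6 libraries 15208803 to 26520251 (median 18400132). Levels are given as log2 CPM, the log2 of the count scaled to 1000000 counts on genes per library, after adding 0.5 to each count. Fold changes, their standard errors (SE) and p-values are from edgeR's quasi-likelihood test with TMM scaling over the 15688 genes that passed its filter on low counts, and adjusted p-values are by the Benjamini-Hochberg method over all of these. For single genes, group means of log2 CPM were set against all 792 ways to divide the mice into 7 and 5 in an exact permutation test (two-sided), whose smallest p is 0.00126. One library stood apart. Against the mean of the other mice of its group, the genes of CTRL replicate 3 had an SD of 0.655 on the log2 scale, against 0.258 to 0.385 in the other 11 libraries, and their deviations had a correlation of -0.595 with the GC content of the transcript across 15660 genes, which are not independent of each other. No library was left out of the main values, and each fold change that moved by over 1.5 times, changed sign or crossed an unadjusted p of 0.05 is also given without CTRL replicate 3.

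The defining astrocyte markers were present in every mouse. The mean level per kilobase of exon, which sets genes of different length on 1 scale, was highest in CTRL for Sparcl1, a secreted matrix protein, at 9.63 log2 CPM per kb. It was followed by Glul at 8.69, Slc1a2 at 8.59, Aldoc at 8.28, Gfap at 7.92 and Ndrg2 at 7.89 log2 CPM per kb. Sox9, Aqp4, Aldh1l1 and Gja1 had levels of 3.73, 4.58, 4.18 and 4.18 log2 CPM per kb in CTRL. At the other end of this scale were the identity gene Chrdl1 at 1.57 and the reactive genes Cd44 at -0.06, Timp1 at -1.24 and Steap4 at -2.85 log2 CPM per kb. Timp1 had 4 to 22 and Steap4 had 3 to 13 counts per mouse, and these 2 did not pass the filter, so 31 of the 33 genes were tested. Exons of Aldh1l1, Slc1a2, Fgfr3, Glul, Slc7a10 and Mt2 overlap a gene on the opposite strand, and since the strand setting of the counting is not given in the sources used here, reads of these overlaps cannot be told apart. Exons of Aldh1l1 and Glul also overlap a gene on the same strand, Gm45901 and Mir8114, where strand does not separate the reads.

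**Figure D1:**
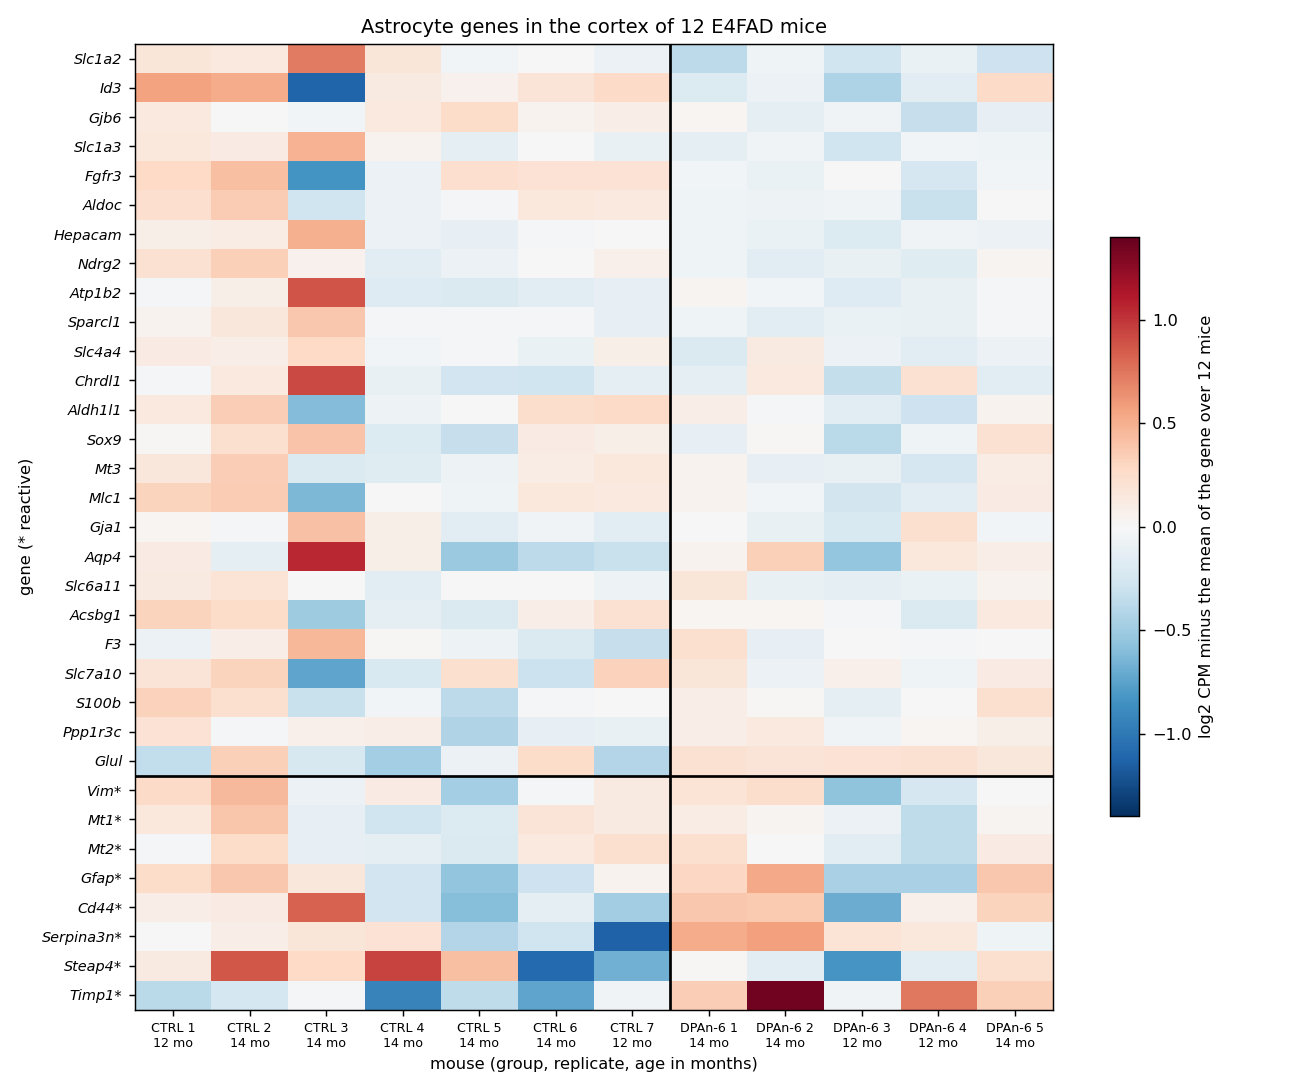
Level of each of the 33 genes (rows, reactive genes starred) in each of the 12 mice (columns, with age in months), as log2 CPM minus the mean of that gene over the 12 mice, red above and blue below. CTRL replicate 3 holds the strongest colours among the identity genes, and the DPAn-6 columns are mostly pale blue in the upper rows.

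Between DPAn-6 and CTRL mice, none of the 31 tested astrocyte genes passed an adjusted p of 0.05 by edgeR, and the smallest adjusted p among them was 0.122. Over all genes tested, 1.55% passed by edgeR. By limma-voom 0 of the 31 passed, and by DESeq2 1 passed (Gjb6, adjusted p = 0.0362), beside 4.44% of all genes by DESeq2. At an unadjusted p under 0.05 there were 6 of the 31, all of them identity genes, beside 14.5% of all genes tested. Of these, Slc1a2, Slc1a3, Gjb6, Aldoc and Ndrg2 were lower in DPAn-6 mice (9.02% of all genes were called lower at this threshold) and Glul was higher (5.51% of all genes). The identity genes had a median log2 fold change of -0.15 against -0.005 over all genes, and 21 of the 25 were lower on average in DPAn-6 mice, beside 51.3% of all genes. Without TMM scaling 20 of the 25 were lower, and in plain means of log2 CPM 19. The 6 reactive genes tested were split, with 3 lower, 3 higher and a median of 0.01. In bulk tissue, fewer astrocytes and less RNA per astrocyte cannot be told apart.

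The groups overlapped in log2 CPM for each of the 33 genes, while 3.22% of all genes tested had groups that did not overlap. By the exact permutation test, 3 of the 33 had an unadjusted p under 0.05 (Slc1a2, Gjb6 and Timp1), beside 15.8% of all genes tested. Averaged over the identity genes, with each gene centred on its own mean, the level per mouse ran from -0.10 to 0.20 in CTRL and from -0.15 to 0.03 in DPAn-6 mice. The same average over the 6 tested reactive genes ran from -0.41 to 0.28 in CTRL and from -0.29 to 0.29 in DPAn-6 mice. Both ranges overlapped widely, and the difference of the group means was -0.08 for the identity genes and 0.07 for the reactive genes on the log2 scale.

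**Figure D2:**
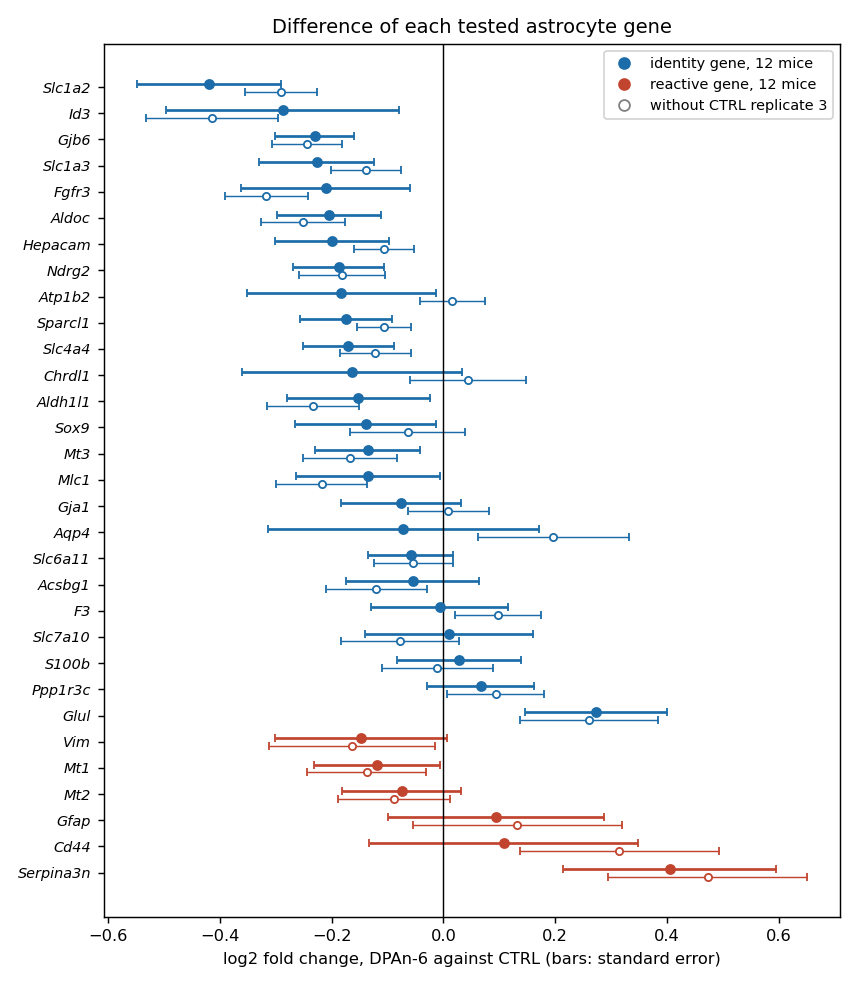
Log2 fold change of DPAn-6 against CTRL for each of the 31 tested genes (x axis), with bars of 1 standard error, from all 12 mice (filled points) and without CTRL replicate 3 (open points). Most identity genes (blue) lie left of 0, Glul lies at 0.27, and among the reactive genes (red) Serpina3n lies farthest right at 0.41.

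The glutamate transporter Slc1a2 (ENSMUSG00000005089, chromosome 2, 102658659 to 102790784, + strand) had the largest fitted difference among the identity genes. In the 5 DPAn-6 mice it stood at 11.79, 12.09, 11.87, 12.06 and 11.86 log2 CPM, and in the 7 CTRL mice the lowest was 12.06, the median 12.29 and the highest 12.88. Of these 5 mice, 4 were lower than any of the CTRL mice though 1 of the 4, at 12.06, by less than 0.01, and the other lay just above the lowest of them. The log2 fold change was -0.42 (SE 0.13), with an unadjusted p of 0.00541 and an adjusted p of 0.128 by edgeR and an exact permutation p of 0.00884. The highest CTRL value belonged to CTRL replicate 3, and without that library the log2 fold change was -0.29 (SE 0.06) with an adjusted p of 0.0144 by edgeR.

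Slc1a3, the other main glutamate transporter of astrocytes (ENSMUSG00000005360, chromosome 15, 8634124 to 8710764, - strand), stood at 9.35, 9.43, 9.20, 9.43 and 9.41 log2 CPM in the DPAn-6 mice. In CTRL the lowest was 9.33, the median 9.53 and the highest 9.96, again in replicate 3. Every value of the DPAn-6 group was under the mean of CTRL, and 1 was under its lowest mouse. The fitted difference of -0.23 (SE 0.10) had an unadjusted p of 0.0439 and an adjusted p of 0.325 by edgeR, with an exact permutation p of 0.0783. It was -0.14 (SE 0.06, adjusted p = 0.197 by edgeR) without CTRL replicate 3.

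Glul, the glutamine synthetase that takes up the glutamate these transporters bring in (ENSMUSG00000026473, chromosome 1, 153899944 to 153909723, + strand), lay on the other side. The DPAn-6 mice had 10.77, 10.73, 10.76, 10.77 and 10.71 log2 CPM, and the CTRL mice had 10.08 as the lowest, 10.33 as the median and 10.89 as the highest. The DPAn-6 mice were nearly level with each other (SD 0.0251, n = 5), while the CTRL mice spread over a much wider range (SD 0.32, n = 7), with 2 of the 7 above every DPAn-6 mouse. For the group difference, edgeR gave 0.27 (SE 0.13), an unadjusted p of 0.0488 and an adjusted p of 0.340, and the exact permutation p was 0.0530. The unadjusted p was 0.0504 by edgeR without CTRL replicate 3. The GABA transporter Slc6a11 (GAT-3) had a log2 fold change of -0.06 (SE 0.08) and Slc7a10, an exchanger of small neutral amino acids, one of 0.01 (SE 0.15), or -0.08 (SE 0.11) without CTRL replicate 3. Neither differed by more than the spread between mice.

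**Figure D3:**
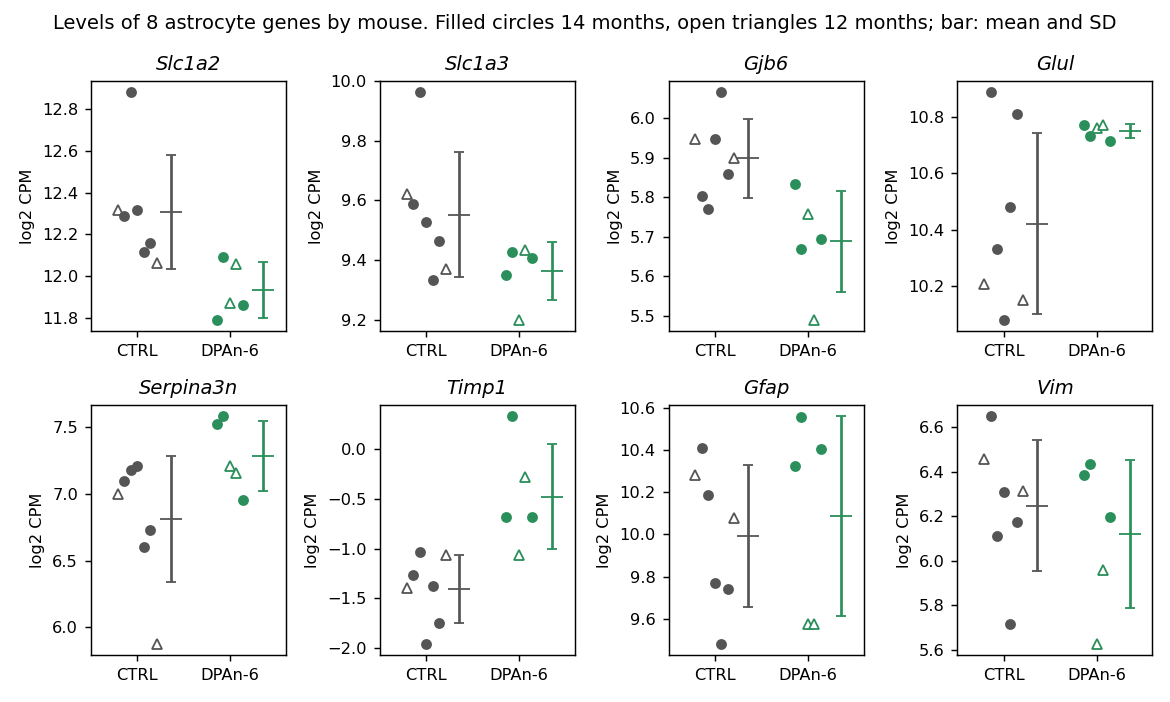
Log2 CPM (y axis) of 8 astrocyte genes in each CTRL (grey) and DPAn-6 (green) mouse, with filled circles for 14 months, open triangles for 12 months, and bars for the mean and SD of each group. Slc1a2 and Gjb6 each have 4 of 5 DPAn-6 mice below every CTRL mouse, Glul is tightly placed between 10.71 and 10.77 in DPAn-6 mice, and the DPAn-6 values of Gfap split by age.

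Gjb6, which encodes a connexin of astrocyte gap junctions (ENSMUSG00000040055, chromosome 14, 57123303 to 57133611, - strand), had the smallest p among the 31 genes. Its DPAn-6 values were 5.83, 5.67, 5.76, 5.49 and 5.69 log2 CPM, and in CTRL the lowest was 5.77, the median 5.90 and the highest 6.07. As for Slc1a2, 4 of the 5 were lower than any of the CTRL mice. The log2 fold change was -0.23 (SE 0.07), with an unadjusted p of 0.00490 and an adjusted p of 0.122 by edgeR and an exact permutation p of 0.00758. CTRL replicate 3 held the lowest CTRL value here, and without it the difference was -0.24 (SE 0.06) and the adjusted p by edgeR was 0.0301. Gja1, which encodes the other main astrocyte connexin, had a log2 fold change of -0.08 (SE 0.11, unadjusted p = 0.492 by edgeR), and 0.01 (SE 0.07) without CTRL replicate 3.

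Aqp4, the water channel of astrocyte endfeet (ENSMUSG00000024411), had DPAn-6 values of 7.28, 7.56, 6.69, 7.38 and 7.32 log2 CPM. Among the CTRL mice the lowest was 6.71, the median 7.11 and the highest 8.29, in replicate 3. The groups lay over each other, and the sign of the difference changed with the library and the scale. It was -0.07 (SE 0.24) by edgeR, with an unadjusted p of 0.772, and 0.20 (SE 0.13, adjusted p = 0.409 by edgeR) without CTRL replicate 3, and the plain means of log2 CPM were 7.22 in CTRL and 7.25 in DPAn-6 mice. Mlc1 and Hepacam, partner membrane proteins of the endfeet, had log2 fold changes of -0.13 (SE 0.13) and -0.20 (SE 0.10), and for Hepacam the 5 treated mice were all under the mean of CTRL (unadjusted p = 0.0686 by edgeR). Without CTRL replicate 3, which was the lowest CTRL mouse for Mlc1 and the highest for Hepacam, the values were -0.22 (SE 0.08, unadjusted p = 0.0171 by edgeR) for Mlc1 and -0.11 (SE 0.05) for Hepacam. For Slc4a4, the sodium bicarbonate cotransporter, the value was -0.17 (SE 0.08, unadjusted p = 0.0535 by edgeR). Atp1b2, the beta 2 subunit of the sodium pump, was at -0.18 (SE 0.17), and at 0.02 (SE 0.06) without CTRL replicate 3, which had 10.59 log2 CPM against 9.52 to 9.80 in the other CTRL mice.

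Among the enzymes and other markers inside the cell, Aldoc and Ndrg2 were those with an unadjusted p under 0.05. Aldoc, the brain aldolase of glycolysis (ENSMUSG00000017390, chromosome 11, 78322968 to 78327781, + strand), stood at 9.85, 9.84, 9.87, 9.6 and 9.91 log2 CPM in DPAn-6 mice. In CTRL it had 9.64 as the lowest, 10.05 as the median and 10.27 as the highest. DPAn-6 replicate 4 was below every CTRL mouse, and the other DPAn-6 mice lay within 0.07 of each other in the lower part of the CTRL range. The log2 fold change was -0.21 (SE 0.09), with an unadjusted p of 0.0433 and an adjusted p of 0.323 by edgeR and an exact permutation p of 0.138.

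Ndrg2, a member of the N-myc downstream regulated family used as an astrocyte marker (ENSMUSG00000004558, chromosome 14, 51905271 to 51914158, - strand), had 9.53, 9.44, 9.48, 9.42 and 9.62 log2 CPM in DPAn-6 mice. The CTRL mice had 9.44 as the lowest, 9.65 as the median and 9.92 as the highest. The 5 treated mice were all under the mean of CTRL, 2 of them under its lowest mouse. By edgeR the difference was -0.19 (SE 0.08), the unadjusted p 0.0361 and the adjusted p 0.303, and the exact permutation p was 0.0833.

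Aldh1l1, a folate enzyme and one of the most used astrocyte markers (ENSMUSG00000030088, chromosome 6, 90486427 to 90600203, + strand), had 6.40, 6.28, 6.16, 6.02 and 6.35 log2 CPM in DPAn-6 mice. In CTRL its lowest value was 5.70, in replicate 3, the median was 6.44 and the highest 6.65. The groups overlapped, with a log2 fold change of -0.15 (SE 0.13, unadjusted p = 0.251 by edgeR), and of -0.23 (SE 0.08, unadjusted p = 0.0117, adjusted p = 0.104 by edgeR) without CTRL replicate 3. Acsbg1, an acyl-CoA synthetase of long-chain fatty acids, was at -0.05 (SE 0.12), or -0.12 (SE 0.09) without that library, and Ppp1r3c, which targets protein phosphatase 1 to glycogen, at 0.07 (SE 0.10). Neither of these 2 had an unadjusted p under 0.05, in all 12 mice or without CTRL replicate 3.

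The regulators and surface or secreted proteins among the identity genes also overlapped between the groups. S100b, a calcium-binding protein (ENSMUSG00000033208, chromosome 10, 76253853 to 76261159, + strand), had 7.10, 7.03, 6.88, 7.02 and 7.24 log2 CPM in DPAn-6 mice, and 6.64 as the lowest, 7.0 as the median and 7.34 as the highest in CTRL. The DPAn-6 mice lay inside the CTRL range, with a log2 fold change of 0.03 (SE 0.11, unadjusted p = 0.806 by edgeR). Sox9, a transcription factor of the astrocyte lineage, was at -0.14 (SE 0.13), F3, the tissue factor, at -0.01 (SE 0.12), and Chrdl1, an antagonist of bone morphogenetic proteins, at -0.16 (SE 0.20). When CTRL replicate 3 was left out, S100b was at -0.01, Sox9 at -0.06, F3 at 0.10 and Chrdl1 at 0.04. Sparcl1 was at -0.18 (SE 0.08), with an unadjusted p of 0.0510 by edgeR, and the 5 treated mice were all under the mean of CTRL. It was -0.11 (SE 0.05, unadjusted p = 0.0421 by edgeR) without CTRL replicate 3.

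For Fgfr3, a receptor of fibroblast growth factors, and Id3, an inhibitor of basic helix-loop-helix factors, CTRL replicate 3 was far below the other mice. Fgfr3 had 6.42 log2 CPM there, against 7.17 to 7.68 in the other 6 CTRL mice and 7.02 to 7.25 in DPAn-6 mice. Id3 had 3.38, against 4.57 to 5.07 in the other CTRL mice and 4.07 to 4.77 in DPAn-6 mice. With all mice, the log2 fold changes were -0.21 (SE 0.15) for Fgfr3 and -0.29 (SE 0.21) for Id3, with unadjusted p of 0.184 and 0.187 by edgeR. Without CTRL replicate 3 they were -0.32 (SE 0.07, adjusted p = 0.0190 by edgeR) and -0.41 (SE 0.12, adjusted p = 0.0472 by edgeR).

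Leaving out CTRL replicate 3 raised the number of astrocyte genes past an adjusted p of 0.05 from 0 to 4 by edgeR. These 4, Slc1a2, Fgfr3, Gjb6 and Id3, were lower in DPAn-6 mice. At an unadjusted p under 0.05 there were then 11, with 10 lower identity genes and Serpina3n higher. The share of all genes past the same thresholds rose with them, to 6.1% adjusted and 23.1% unadjusted, and at the unadjusted threshold 12.5% of all genes were called lower and 10.7% higher. In that library, 13 of the 33 genes were above every other CTRL mouse and 9 were below every other one. The 13 had a median transcript GC content of 45.9% and the 9 one of 55.4%, and over the 31 tested genes the deviation of this library had a correlation of -0.672 with GC content. Aqp4 with 41.4% GC was 1.30 above the mean of the other CTRL mice on the log2 scale with TMM scaling, Cd44 with 44.5% was 1.09 above it, and Id3 with 55.6% was at -1.36 from it. The reads behind this library were not examined, and the part of GC content in these differences was not tested.

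**Figure D4:**
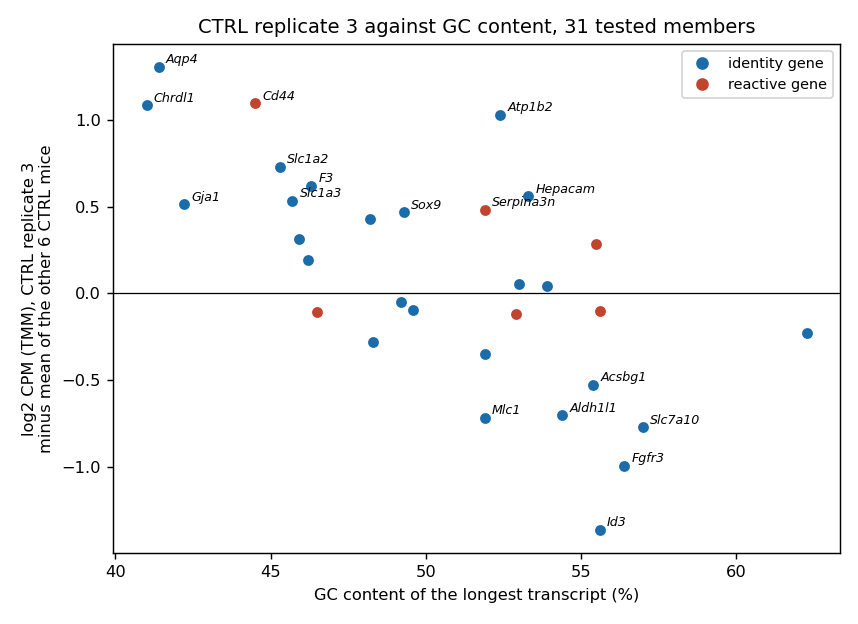
Deviation of CTRL replicate 3 from the mean of the other 6 CTRL mice in log2 CPM with TMM scaling (y axis) against the GC content of the longest transcript in percent (x axis), for the 31 tested genes, identity in blue and reactive in red. Genes of low GC content such as Aqp4 (1.30) and Chrdl1 (1.08) lie above 0, and Fgfr3 (-0.99) and Id3 (-1.36), of high GC content, lie below.

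Of the reactive genes, Gfap, the intermediate filament protein that defines reactive astrogliosis (ENSMUSG00000020932, chromosome 11, 102887336 to 102900912, - strand), had 10.33, 10.56, 9.58, 9.58 and 10.41 log2 CPM in DPAn-6 mice. In CTRL the lowest was 9.48, the median 10.08 and the highest 10.41. The 2 DPAn-6 mice of 12 months were low and the 3 of 14 months were high, so that the group covered nearly the whole range of the series. The sex of each mouse is not in the labels, and the part of sex in this split was not tested. The log2 fold change was 0.09 (SE 0.19), with an unadjusted p of 0.632 by edgeR and an exact permutation p of 0.671. With the level of Xist, a gene expressed in females, as a covariate, the log2 fold change of Gfap was 0.055 (unadjusted p = 0.549 by edgeR). Vim, which encodes vimentin (ENSMUSG00000026728, chromosome 2, 13573927 to 13582826, + strand), had 6.39, 6.44, 5.63, 5.96 and 6.20 log2 CPM in DPAn-6 mice and 5.72, 6.31 and 6.65 as the lowest, median and highest in CTRL. Its groups overlapped, with a log2 fold change of -0.15 (SE 0.15, unadjusted p = 0.355 by edgeR). The 2 filament genes varied together from mouse to mouse (Pearson's r of the deviations from the group means = 0.857, permutation p within groups = 0.00094, n = 12 mice). Spearman's rho was 0.867, and r was 0.840 once the 2 mice most distant from the median Gfap level were left out, CTRL replicate 5 and DPAn-6 replicate 4.

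Serpina3n, a secreted protease inhibitor (ENSMUSG00000021091, chromosome 12, 104406729 to 104414329, + strand), had the largest positive fold change of the 31 genes, and it did not pass the test. It stood at 7.53, 7.58, 7.21, 7.15 and 6.95 log2 CPM in DPAn-6 mice, against 5.88 as the lowest, 7.0 as the median and 7.21 as the highest in CTRL. All 5 DPAn-6 mice were above the CTRL mean of 6.81 and 2 were above every CTRL mouse, while the lowest value belonged to a CTRL mouse of 12 months, replicate 7. By edgeR the difference was 0.41 (SE 0.19), the unadjusted p 0.0510 and the adjusted p 0.345, and the exact permutation p was 0.0606. The unadjusted p was 0.0427 by DESeq2 and 0.0405 by limma-voom, and neither passed after adjustment. Without CTRL replicate 3 the difference was 0.47 (SE 0.18, unadjusted p = 0.0168, adjusted p = 0.125 by edgeR). Serpina3n sits in a cluster of closely related genes, and reads that map to several copies are not in gene counts of uniquely mapped reads. Cd44, a receptor of hyaluronan with 83 to 223 counts per mouse, had a log2 fold change of 0.11 (SE 0.24, unadjusted p = 0.662 by edgeR), and of 0.32 (SE 0.18, unadjusted p = 0.0966 by edgeR) without CTRL replicate 3.

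Timp1, the tissue inhibitor of metalloproteinases 1 (ENSMUSG00000001131, chromosome X, 20870166 to 20874735, + strand), was too low to pass the filter in all 12 mice, and its values were singled out after they had been seen. In DPAn-6 mice it had -0.68, 0.33, -1.07, -0.28 and -0.69 log2 CPM, and in CTRL -1.96 as the lowest, -1.38 as the median and -1.03 as the highest. The DPAn-6 values came out higher, with 4 of the 5 mice above every CTRL mouse, at 4 to 22 counts per mouse (exact permutation p = 0.00253, unadjusted, 1 of 33 genes looked at). At such counts the difference in mean log2 CPM, from -1.41 to -0.48, depends on the 0.5 added to each count. Without a filter on low counts, all 12 mice gave a log2 fold change of 1.01 (SE 0.32, unadjusted p = 0.00443, adjusted p = 0.193 by edgeR). The 14-month mice alone gave 1.21 (SE 0.38), but Timp1 passed the filter there only through its DPAn-6 mice, at 11, 22 and 16 counts. That fit is therefore no separate support. Steap4, a metalloreductase, overlapped between the groups at 3 to 13 counts (exact permutation p = 0.422).

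The metallothioneins Mt1, Mt2 and Mt3 are small proteins that bind zinc and copper. Their genes lie in 1 cluster on chromosome 8, all on the + strand, with the GENCODE start of Mt2 at 20057 bases after that of Mt3 and the start of Mt1 at 6418 bases after that of Mt2. Mt1 and Mt2 are classic targets of the metal-responsive transcription factor, which binds metal response elements with a short conserved core, while Mt3 is mainly known from the brain and responds less to metals. The promoter windows of the 3 genes are shown because these genes varied together between mice. The sequences are from RefSeq for GRCm38.p6, around the RefSeq starts, at 94179089 for Mt1, 94172618 for Mt2 and 94152607 for Mt3, which for Mt1 and Mt2 are not the GENCODE starts given with the genes. Each runs from 250 bases before the start and has 300 bases, written 5′ to 3′ on the + strand, with each TGCGCNC or TGCACNC on either strand in capitals.
Mt1, chr8:94178839-94179138: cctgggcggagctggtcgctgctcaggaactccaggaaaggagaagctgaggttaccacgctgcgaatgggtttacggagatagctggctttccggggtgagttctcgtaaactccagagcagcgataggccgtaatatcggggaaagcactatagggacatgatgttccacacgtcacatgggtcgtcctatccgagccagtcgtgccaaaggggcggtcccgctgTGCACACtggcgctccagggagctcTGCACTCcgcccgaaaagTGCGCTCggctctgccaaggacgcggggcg
Mt2, chr8:94172368-94172667: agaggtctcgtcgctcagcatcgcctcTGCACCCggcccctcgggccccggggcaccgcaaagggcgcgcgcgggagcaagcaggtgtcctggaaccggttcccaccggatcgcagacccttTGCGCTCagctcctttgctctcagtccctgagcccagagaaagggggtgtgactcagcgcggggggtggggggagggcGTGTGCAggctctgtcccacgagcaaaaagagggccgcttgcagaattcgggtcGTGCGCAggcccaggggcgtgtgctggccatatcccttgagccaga
Mt3, chr8:94152357-94152656: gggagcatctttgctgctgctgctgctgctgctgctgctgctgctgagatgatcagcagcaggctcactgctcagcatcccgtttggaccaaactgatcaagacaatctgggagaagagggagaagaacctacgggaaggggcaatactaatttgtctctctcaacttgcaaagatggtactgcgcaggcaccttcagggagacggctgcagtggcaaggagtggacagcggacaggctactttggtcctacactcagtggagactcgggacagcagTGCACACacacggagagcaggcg
The Mt1 window held 3 such cores, the Mt2 window 4 and the Mt3 window 1. Among 32851 promoter windows of this length, 25.7% held at least 1 core and 1.97% held 3 or more. A match of letters is a description and no evidence of binding in these mice.

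Mt1 (ENSMUSG00000031765, chromosome 8, 94179082 to 94180327) had 7.30, 7.23, 7.11, 6.84 and 7.23 log2 CPM in DPAn-6 mice, against 6.92 as the lowest, 7.32 as the median and 7.58 as the highest in CTRL. Mt2 (ENSMUSG00000031762, chromosome 8, 94172664 to 94173568) had 6.47, 6.25, 6.09, 5.89 and 6.36 in DPAn-6 mice, against 6.04, 6.22 and 6.5 in CTRL. In both genes DPAn-6 replicate 4 was the lowest of the 12 mice, CTRL replicate 2 was the highest, and the groups overlapped. The log2 fold changes were -0.12 (SE 0.11) for Mt1, -0.07 (SE 0.11) for Mt2 and -0.14 (SE 0.09) for Mt3, which is counted among the identity genes, with unadjusted p of 0.307, 0.493 and 0.172 by edgeR.

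The 3 metallothioneins followed each other over the 12 mice. With each value taken as the deviation from its group mean, Pearson's r was 0.883 between Mt1 and Mt2, 0.909 between Mt1 and Mt3 and 0.817 between Mt2 and Mt3, with permutation p within groups of 0.00017, 0.0005 and 0.00206. Adjusted over the 6 pairs of genes compared in this way, the permutation p were 0.00102, 0.00141 and 0.00247. Spearman's rho was 0.846, 0.825 and 0.776, with adjusted permutation p of 0.00396, 0.00513 and 0.00652. Leaving out the 2 mice most distant from the median of the first gene, r was 0.859, 0.873 and 0.818, and without CTRL replicate 3 it was 0.880, 0.932 and 0.833. Among the 8 mice of 14 months r was 0.931, 0.892 and 0.874. The transcripts of Mt1, Mt2 and Mt3 have a GC content of 52.9%, 55.6% and 62.3%, and the part of GC content in these relations was not tested.

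**Figure D5:**
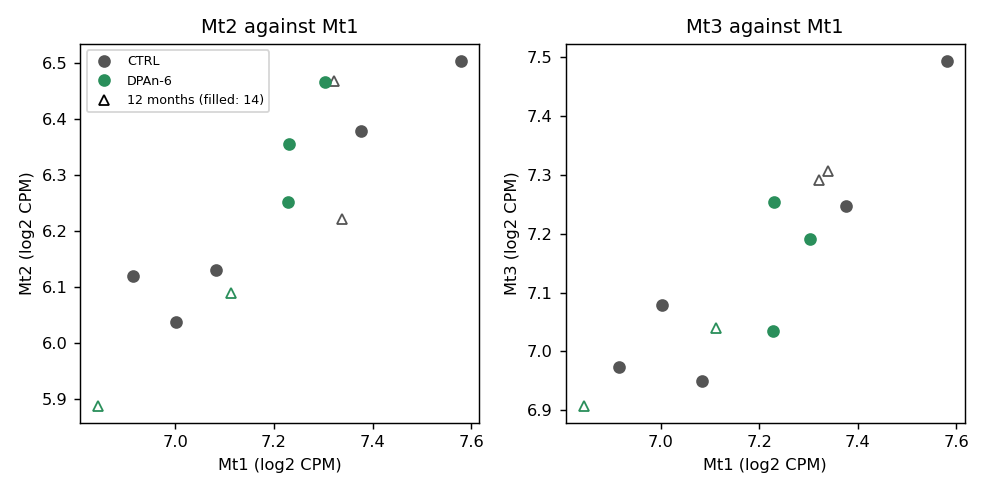
Log2 CPM of Mt2 (left) and Mt3 (right) against that of Mt1 in the 12 mice, grey for CTRL and green for DPAn-6, filled circles for 14 months and open triangles for 12 months. The points rise together in both panels, with r of the deviations from the group means of 0.883 for Mt2 and 0.909 for Mt3, and the groups lie over each other.

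Of the other pairs compared, the 2 glutamate transporters also varied together, with r = 0.929 between Slc1a2 and Slc1a3 (permutation p = 0.00075, adjusted 0.00141; rho = 0.874, adjusted permutation p = 0.00396). Leaving out the 2 mice most distant from the median of Slc1a2, CTRL replicates 3 and 7, r was 0.706, and without CTRL replicate 3 alone it was 0.756. The transcripts of these 2 genes are close in GC content, at 45.3% and 45.7%, and the part of GC content in their relation was not tested. The connexins Gja1 and Gjb6 gave r = -0.559 (permutation p = 0.0622) and rho = -0.378 (permutation p = 0.244), and r was -0.133 without CTRL replicate 3 and DPAn-6 replicate 4, so that no relation between them was shown. The adjusted permutation p of Gfap and Vim was 0.00141 for r and 0.00396 for rho.

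Mice of 14 months were compared with mice of 12 months in a fit with treatment as the other term. None of the 31 genes passed an adjusted or an unadjusted p of 0.05 by edgeR or limma-voom, beside 0% of all genes at the adjusted and 1.78% at the unadjusted threshold. The smallest unadjusted p of the reactive genes was 0.112, for Cd44, with a log2 difference of 0.42 (SE 0.25) of 14 over 12 months. Serpina3n was at 0.33 (SE 0.20) and Gfap at 0.24 (SE 0.20), and each of the 6 tested reactive genes was higher at 14 months on average (median 0.19), beside a median of 0.003 over all genes, of which 49% were lower at 14 months. In plain means of log2 CPM, 4 of the 6 (Gfap, Vim, Mt1 and Mt2) were lower at 14 than at 12 months within CTRL, and all 6 were higher within DPAn-6 mice. Among the 25 identity genes 16 were higher and 9 lower, with a median of 0.03. Simulated age differences of 1 on the log2 scale, in 200 of 15556 genes, were recovered in 87% of cases by this fit.

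Whether the DPAn-6 difference itself differed between the ages was tested as an interaction, which rests on 2 CTRL and 2 DPAn-6 mice of 12 months. Sex was not a term in the age or interaction fits, so its part in these differences was not tested. None of the 31 genes passed after adjustment (smallest adjusted p = 0.905 by edgeR), beside 0.00637% of all genes, which is 1 gene. At an unadjusted p under 0.05 there were 3, all of them reactive genes with a positive interaction, beside 4.26% of all genes, of which 2.47% in the positive direction. Gfap had the largest of these, 1.05 on the log2 scale (SE 0.30, unadjusted p = 0.00396, adjusted p = 0.905 by edgeR). In plain means of log2 CPM, Gfap stood at 10.18 in CTRL and 9.58 in DPAn-6 mice of 12 months, a difference of -0.61, and at 9.92 in CTRL and 10.43 in DPAn-6 mice of 14 months, a difference of 0.51. Both DPAn-6 mice of 12 months were below both CTRL mice of that age, and at 14 months the 3 DPAn-6 mice lay with CTRL replicates 2 and 3 in the upper part of the range.

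The other reactive genes with an unadjusted p under 0.05 were Vim, with an interaction of 0.68 (SE 0.28, unadjusted p = 0.0321 by edgeR), and Mt2, with 0.44 (SE 0.20, unadjusted p = 0.0455 by edgeR). The plain difference of DPAn-6 from CTRL mice was -0.60 at 12 and 0.15 at 14 months for Vim, and -0.36 at 12 and 0.12 at 14 months for Mt2. Among the identity genes the interaction was nowhere under an unadjusted p of 0.05, and its median was 0.15. In the 14-month mice alone, 5 CTRL against 3 DPAn-6, Gfap had a log2 fold change of 0.45 (SE 0.19, unadjusted p = 0.0373, adjusted p = 0.513 by edgeR). Simulated interactions of 1 on the log2 scale in 200 of 15563 genes were recovered in 30.8% of cases, so that a difference of this size between the ages would mostly be missed.

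Further astrocyte genes were read in the same fit. Of 35 further identity genes, all tested, 23 were lower and 12 higher in DPAn-6 mice, with 7 lower and 2 higher at an unadjusted p under 0.05, none at an adjusted p and a median of -0.06, beside 9.02% lower and 5.51% higher over all genes. Without CTRL replicate 3 the adjusted count was 4, all lower, beside 6.1% of all genes. Of 26 further reactive genes 23 were tested, with 16 lower and a median of -0.13. At an unadjusted p under 0.05, 5 of them were lower, beside 9.02% of all genes. One gene passed the adjusted threshold, beside 1.55% of all genes, and without CTRL replicate 3 there were 2, beside 6.1%. With all mice it was Serping1, the inhibitor of complement C1, which blood vessel and meningeal cells also express. Serping1 fell from 3.25 ± 0.20 log2 CPM (SD, n = 7) in CTRL to 2.46 ± 0.45 (SD, n = 5) in DPAn-6 mice, and every DPAn-6 mouse (1.91 to 2.91) was below every CTRL mouse (3.03 to 3.61). Over all genes tested, 3.22% had groups that did not overlap. The log2 fold change of Serping1 was -0.76 (SE 0.18, adjusted p = 0.0450 by edgeR, exact permutation p = 0.00126, the lowest that 7 and 5 mice can give).

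Those with the smallest p among the further identity genes did not pass after adjustment. They were Cyp4f15, a fatty acid hydroxylase of the cytochrome P450 family, at -0.56 (SE 0.14, adjusted p = 0.0579 by edgeR), Ttyh1, a membrane protein of the tweety family, at -0.22 (SE 0.06, adjusted p = 0.0954 by edgeR), and Gpc5, a heparan sulphate proteoglycan, at -0.29 (SE 0.08, adjusted p = 0.0984 by edgeR). Ttyh1 lay between 8.99 and 9.09 log2 CPM in DPAn-6 mice and between 9.11 and 9.41 in CTRL, and Gpc5 between 4.98 and 5.22 and between 5.24 and 5.62, so that these 2 did not overlap between the groups, as 3.22% of all genes. Without CTRL replicate 3 the adjusted p by edgeR was 0.0125 for Cyp4f15, 0.0204 for Ttyh1 and 0.0307 for Gpc5.

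Markers of other cell types were read in the same fit, where 1.55% of all genes passed an adjusted p of 0.05. All 12 microglial genes were lower in DPAn-6 mice (median log2 fold change -0.44, 3 at an adjusted p under 0.05), with summed levels of 740 to 1000 CPM against 981 to 1390 in CTRL. All 10 mural cell genes (median -0.27, 1 adjusted) and all 9 meningeal fibroblast genes (median -0.51, 3 adjusted) were lower too, with summed levels of 330 to 355 against 380 to 409 CPM and of 142 to 216 against 198 to 320 CPM. Of 12 oligodendrocyte genes 10 were higher (median 0.21, none adjusted), at 6370 to 7220 against 5400 to 7150 CPM, and of 12 neuronal genes 11 were higher (median 0.11, none adjusted), at 14400 to 14800 against 13600 to 17500 CPM. Endothelial genes were split, with 7 of 12 lower (median -0.06, none adjusted), as were oligodendrocyte precursor genes, with 4 of 7 lower (median -0.02, none adjusted), and these had summed levels of 461 to 503 against 476 to 561 CPM and of 353 to 407 against 306 to 428 CPM.

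Genes of choroid plexus and ependyma summed to 20.5 to 39.6 CPM in DPAn-6 and to 28.2 to 1680 CPM in CTRL mice, with the highest values in CTRL replicates 2 (1680 CPM), 5 (1040 CPM) and 3 (212 CPM), and 7 of the 10 were tested, all lower, none at an adjusted p. No marker in any of these lists was at 0 in all mice. With the choroid plexus gene Ttr as a covariate, 2 identity genes (Gjb6 and Glul) instead of 6 had an unadjusted p under 0.05. At an adjusted p under 0.05 there were 0 astrocyte genes in both fits, and 17 of all genes instead of 243. With Ttr, the log2 fold changes were -0.36 for Slc1a2, -0.18 for Slc1a3, -0.17 for Aldoc and -0.10 for Ndrg2. They were -0.22 for Gjb6 and 0.49 for Glul. The summed choroid plexus and ependyma genes had a median of 21.7 CPM in DPAn-6 and 48.3 CPM in CTRL mice. A choroid covariate thus goes partly with treatment, and this fit cannot separate them. The part of choroid tissue in the differences was not tested. The adjusted calls without CTRL replicate 3 were 6 in microglial, 5 in mural, 3 in meningeal fibroblast, 2 in oligodendrocyte, 1 in neuronal and 1 in choroid plexus and ependyma genes. There were 0 in endothelial and in oligodendrocyte precursor genes, and 6.1% of all genes passed. The summed level of the 25 identity genes was 12400 to 13200 CPM in DPAn-6 and 12900 to 18000 CPM in CTRL mice, and that of the 8 reactive genes was 1150 to 2020 against 1060 to 1890 CPM. Vim, Cd44, Timp1, Id3 and the metallothioneins are also expressed by vascular, meningeal or immune cells, and the part of these cells in the values of the astrocyte genes was not tested.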

How the data were processed

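RNA-Seq was made from the brain cortex of 12 E4FAD mice (7 CTRL, 5 DPAn-6). The authors prepared poly(A)-selected libraries with a KAPA mRNA kit, sequenced them on a HiSeq3000 and aligned the reads to GRCm38 (Ensembl 88) with STAR (2.5.3a in the submitters' processing notes). They deposited 1 table of raw counts per gene, without normalization. The strand column is not given in the sources used here. Mitochondrial genes were not analysed here. Groups and ages were taken from the sample labels.

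Gene names, exon lengths and GC content came from GENCODE M21, which matched 50339 of 50563 identifiers. Log2 CPM used a pseudocount of 0.5. The main test was the quasi-likelihood test of edgeR 4.0.16 (R 4.3.3), with TMM scaling, filterByExpr by group and no covariate. Age was tested beside treatment, and the interaction with both. Alternatives were DESeq2 1.42.0, limma-voom (limma 3.58.1), no TMM, 2 other filters, a covariate (age, Xist or Ttr), a block for the replicate number, the 14-month mice alone and each library left out. Chosen after seeing the data were fits that took out the trend of each library on transcript length and GC content, with and without the block, and a fit without Gm42418, a gene that takes reads of ribosomal RNA (0.279 to 3.92% of counts). Permutation tests and correlations used Python 3.11.15, numpy 2.4.6 and scipy 1.17.1, with 100000 resamples for correlations.

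The members and lists were chosen with earlier results of these data known. Every gene of the set is named. Values by mouse are given for Gfap, Aqp4, Aldh1l1, Slc1a2, S100b, Vim, Serpina3n, Mt1 and Mt2 and for the 6 genes with the smallest unadjusted p. Timp1 was added after its values were seen, and at most 4 genes of the further lists are named. In 3 simulated data sets of 15563 genes on average, with 200 changed by 1 on the log2 scale between treatments, edgeR recovered 89.2% with 5.72% false calls, limma-voom 88.7% with 5.58% and DESeq2 90.9% with 15.9%.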

Additional observations from a re-analysis of the deposited data

Results flagged for a closer look

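In the 33 genes, 66 groups of values (each gene in CTRL and in DPAn-6 mice) were checked for a mouse far from the others by Dixon's criterion, which chance meets in about 1 in 20 groups. It was met in 11. CTRL replicate 3 accounted for 9 of these. Its log2 CPM was the highest of the 7 CTRL mice, with a wide gap, for Aqp4 (8.29), Slc1a2 (12.88), Gja1 (7.93), Atp1b2 (10.59), Hepacam (7.46) and Chrdl1 (5.21). It was the lowest by a wide gap for Fgfr3 (6.42), Mlc1 (6.94) and Id3 (3.38). DPAn-6 replicate 4 was far below the other DPAn-6 mice for Aldoc (9.6), and DPAn-6 replicate 3 for Cd44 (2.07).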

How the results depend on the processing

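For DPAn-6 against CTRL, 25 alternatives were run. The number of the 31 genes past an adjusted p of 0.05 was 0 in all but 2 of them: 1 by DESeq2 (Gjb6) and 4 without CTRL replicate 3. Over all genes, the adjusted count was 243 in the main fit and ran from 9 in the 14-month mice only to 953 without CTRL replicate 3. Over the alternatives the adjusted p ranged from 0.0144 to 0.851 for Slc1a2, from 0.0301 to 0.724 for Gjb6, from 0.019 to 1.0 for Fgfr3 and from 0.0472 to 1.0 for Id3. The number of identity genes at an unadjusted p under 0.05, 6 with all mice, was 3 without TMM, 1 in the 14-month mice only, 2 with Ttr as covariate and 2 to 10 with 1 library left out (2 without CTRL replicate 1 or DPAn-6 replicate 1, 3 or 4, 3 without CTRL replicate 2 or DPAn-6 replicate 2 or 5, 10 without CTRL replicate 3). For the reactive genes, 0 with all mice, it was 1 by DESeq2, limma-voom, without TMM or with age as covariate, 2 without a filter on low counts or in the 14-month mice only (both with Timp1, which passed there), and 0 to 1 with 1 library left out (1 without CTRL replicate 2, 3, 4 or 7 or DPAn-6 replicate 3, 4 or 5, which without DPAn-6 replicate 3 was Timp1). Timp1 passed the filter in the 14-month mice and without DPAn-6 replicate 3 only through its DPAn-6 counts, so those calls are no separate support. The exact permutation count of 3 was 3 to 7 with 1 library left out (5 without CTRL replicate 5, 6 or 7, 6 without 4, 7 without 3). For age, 0 to 1 reactive genes had an unadjusted p under 0.05 with 1 library left out (1 without CTRL replicate 1 or 5 or DPAn-6 replicate 5). For the interaction, the identity genes numbered 1 by limma-voom or without TMM and 0 to 4 with 1 library left out (4 without CTRL replicate 2, 3 without 3), and the reactive genes 2 to 4. Among the alternatives for DPAn-6 against CTRL, the unadjusted share of all genes was taken only without CTRL replicate 3 (23.1%, against 14.5% with all mice). Changes in these unadjusted counts are therefore no result about the astrocyte genes.

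Some small differences changed sign, none of them at an unadjusted p under 0.05 after the change. The log2 fold change of Aqp4 was 0.007 by limma-voom and 0.018 after removal of the trend on length and GC content. That of F3 was 0.017 by limma-voom, 0.02 without TMM, 0.015 without a filter, 0.018 with age and 0.179 with Ttr as covariate, and 0.001 with the trend removed. With Ttr as covariate Slc6a11 was at 0.038, S100b at -0.008 and Ppp1r3c at -0.019. In the 14-month mice only, Aldh1l1 was at 0.004, Slc6a11 at 0.009, Mlc1 at 0.031, Acsbg1 at 0.119, Vim at 0.099, Mt1 at 0.02 and Mt2 at 0.094. Gja1 was at 0.007 with the trend removed. With 1 library left out, the log2 fold change ran from -0.054 to 0.098 for F3, -0.15 to 0.197 for Aqp4, -0.135 to 0.009 for Gja1, -0.019 to 0.09 for S100b, -0.226 to 0.016 for Atp1b2, -0.078 to 0.072 for Slc7a10, -0.224 to 0.044 for Chrdl1, -0.022 to 0.218 for Gfap, -0.12 to 0.001 for Acsbg1 and -0.132 to 0.007 for Mt2. The cause of these changes was not tested.

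The replicate numbers in the labels showed no sign of pairing the mice. The deviations of same-numbered mice had correlations of -0.125 to 0.22 over 5 pairs, and 1 of 5 mice correlated best with its own number. So few pairs cannot exclude a pairing. With the replicate number as a block, no gene of the 31 passed an adjusted p, 4 identity genes had an unadjusted p under 0.05, Acsbg1 was at 0.016, and 79 of all genes passed instead of 243. With the block and the trend removed, Gja1 was at 0.002 and Slc7a10 at -0.001. The simulations covered changes of 1 on the log2 scale, so how often smaller differences would be found was not measured, and Timp1 and Steap4, at up to 22 counts, carry the counting error of small numbers.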
